A study of Mus musculus with 6 samples.

Results

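The genes described here are 9 members of the activin and bone morphogenetic protein (BMP) branches of TGFβ family signaling and their antagonists: *Inhba*, *Inhbb*, *Acvr1*, *Acvr2a*, *Fst*, *Fstl1*, *Fstl3*, *Grem1* and *Bambi*. They were picked by gene symbol, and all 9 were found among the 25140 genes of the deposited table. RNA-seq was used to compare primary cardiac fibroblasts given TGFβ with the same kind of cells given vehicle, to examine the transcriptional side of myofibroblast differentiation. The cells came from adult hearts of C57BL/6 mice, were used at passage 1, and were switched to 1% FBS before treatment, 16 h ahead by the labels and 24 h ahead by the study's methods, which keep the low serum through the treatment. Both groups share this low serum. The 3 TGFβ libraries received 10 ng/ml TGFβ for 24 h and the 3 vehicle libraries were harvested on the same schedule without it. The labels and the methods both name cardiac fibroblasts, whereas the study's results text speaks of mouse embryonic fibroblasts. The methods name 3 biological replicates and do not say whether these were separate hearts, so the p-values measure the spread between these cultures. The columns of counts give the group and no replicate number, and the libraries are called A, B and C within each group only as names. Whether libraries of the same letter share a culture is not known.

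Libraries held 27851677 to 31072338 counts, with a biological coefficient of variation of 7.97% over the genes tested. All 10 fibroblast markers of the list used (such as *Pdgfra* and *Col1a1*) were present. In edgeR 7 of them fell and 0 rose with TGFβ, where 20.1% of all genes tested fell and 20.5% rose. *Col1a1* had a log2 fold change of 0.23 (edgeR adjusted p = 0.055, unadjusted p = 0.0229), and DESeq2 and limma-voom each called 1 of the 10 higher. *Tcf21* and the other 5 transcription factors of the cardiac fibroblast list were also present, with 1 higher, 3 lower and a summed level of 1008 to 1174 CPM (counts relative to the TMM-scaled size of the library) with vehicle and 736 to 807 CPM with TGFβ. The cardiomyocyte list summed to 27.2 to 59.3 CPM over all libraries, nearly all of it *Tnnt2*, with *Myh6*, *Ttn*, *Myl2*, *Ryr2* and *Actn2* under 1 CPM in each library and neither of the 2 genes tested called in edgeR (1 at an unadjusted p under 0.05, 1 in DESeq2 and 0 in limma-voom). None of the 7 endothelial and 7 leukocyte markers was called in edgeR, DESeq2 or limma-voom, or had an unadjusted edgeR p under 0.05 (0 in each case), and their sums were 397 to 669 CPM and 214 to 350 CPM over all libraries. The smooth muscle list had 3 of 5 genes higher (139 to 161 CPM with vehicle, 177 to 245 CPM with TGFβ). The pericyte list had 1 of 5 higher (1138 to 1180.3 CPM with vehicle, 1272 to 1279 CPM with TGFβ). Most of the pericyte sum was *Pdgfrb*, at 1105 to 1150 CPM with vehicle and 1179 to 1226 CPM with TGFβ. *Cspg4* of the same list measured 16.6 to 22.9 CPM with vehicle and 40.0 to 63.3 CPM with TGFβ. The groups overlapped for *Rgs5*, *Kcnj8* and *Abcc9*. The genes used as a check of the treatment, *Acta2*, *Tagln*, *Skil* and *Postn*, rose in 4 of 4 cases. In RNA from whole cultures, fewer cells of a type and less RNA per cell cannot be told apart, and the part of these shifts in the results below was not tested.

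Activins are secreted dimers of inhibin β subunits. They bind a type II receptor such as ACVR2A, which recruits a type I receptor that phosphorylates SMAD2 and SMAD3, the same SMADs that TGFβ uses. BMPs act through other type I receptors, including ACVR1 (ALK2), and phosphorylate SMAD1, SMAD5 and SMAD9. Follistatin and follistatin-like 3 trap activins outside the cell, gremlin 1 traps BMPs, and BAMBI is a membrane pseudoreceptor without a kinase. In fibroblasts, activin A is known as a profibrotic cytokine and several of these antagonists are known targets of TGFβ family signaling.

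The promoters of the 3 genes on which the ligand and antagonist results turn are shown here, so that the sequence upstream of the gene with the largest rise (*Fstl3*), the gene that fell (*Inhbb*) and the partner subunit that rose (*Inhba*) can be compared. Each run is the 250 bases before the RefSeq start in GRCm38.p6, 5′ to 3′ on the gene's strand, with capitals marking AGAC or its reverse complement GTCT, the core of the SMAD binding element. They lie at chr10:79777024-79777273 on the plus strand (*Fstl3*), chr1:119422249-119422498 on the minus strand (*Inhbb*) and chr13:16011601-16011850 on the plus strand (*Inhba*).
Fstl3: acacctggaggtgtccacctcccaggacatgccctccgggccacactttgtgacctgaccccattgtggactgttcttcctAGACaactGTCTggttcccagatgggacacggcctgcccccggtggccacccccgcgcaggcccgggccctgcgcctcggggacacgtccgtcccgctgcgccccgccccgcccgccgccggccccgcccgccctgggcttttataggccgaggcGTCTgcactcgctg
Inhbb: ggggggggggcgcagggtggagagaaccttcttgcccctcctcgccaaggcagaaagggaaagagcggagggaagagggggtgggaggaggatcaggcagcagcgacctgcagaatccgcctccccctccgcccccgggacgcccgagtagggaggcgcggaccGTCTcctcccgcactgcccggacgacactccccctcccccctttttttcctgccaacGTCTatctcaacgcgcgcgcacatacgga
Inhba: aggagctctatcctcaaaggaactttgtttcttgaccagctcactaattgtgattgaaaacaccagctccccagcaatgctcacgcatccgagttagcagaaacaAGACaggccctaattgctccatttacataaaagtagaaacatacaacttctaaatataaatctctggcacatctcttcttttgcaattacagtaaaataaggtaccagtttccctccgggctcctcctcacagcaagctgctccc

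The *Fstl3* window held 3 matches to AGAC and a GC content of 71.2%, the *Inhbb* window 2 matches and 68% GC, and the *Inhba* window 1 match and 43.2% GC. Such matches are common: 82.9% of 32851 promoter windows of the same length held AGAC on either strand, with a median of 2 matches. RefSeq windows were used for 7 of the 9 genes, and all 7 held AGAC. The longer CAGAC, which contains AGAC, was found in 3 of the 7 (*Fstl3*, *Acvr2a* and *Grem1*) and in 42.2% of all windows. The palindrome GTCTAGAC was found in 0 of the 7 and in 0.167% of all windows. The BMP-type element GGCGCC was found in 1 of the 7 (*Grem1*) and in 9.59% of all windows. These matches are letters in a window and do not show binding. *Fst* had no window in the table, and the window of *Bambi* was not used here.

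With TGFβ, the secreted activin antagonist *Fstl3* rose 3.59-fold, the βA subunit *Inhba* 1.78-fold, the secreted glycoprotein *Fstl1* 1.58-fold, the pseudoreceptor *Bambi* 1.35-fold and the type I receptor *Acvr1* 1.24-fold. The βB subunit *Inhbb* was the gene that fell, to 0.453 times its vehicle level. *Fst*, *Acvr2a* and *Grem1* did not pass the test. All 9 genes passed the filter on low counts. Thus 6 of 9 were called at an adjusted p under 0.05 in edgeR's quasi-likelihood test, 5 of them higher and 1 lower, where 40.7% of the 14334 genes tested were called, 20.5% higher and 20.1% lower. The 3 TGFβ and 3 vehicle values did not overlap for the same 6 genes, as for 53.3% of all genes tested. The median log2 fold change was 0.43 over the 9 genes and -0.0013 over all genes tested, and the median size of the change regardless of sign was 0.44 and 0.21. The 9 genes and the lists below were chosen with earlier results of these data known. Comparisons with all genes tested are thus description and no test of the set.

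**Figure D1:**
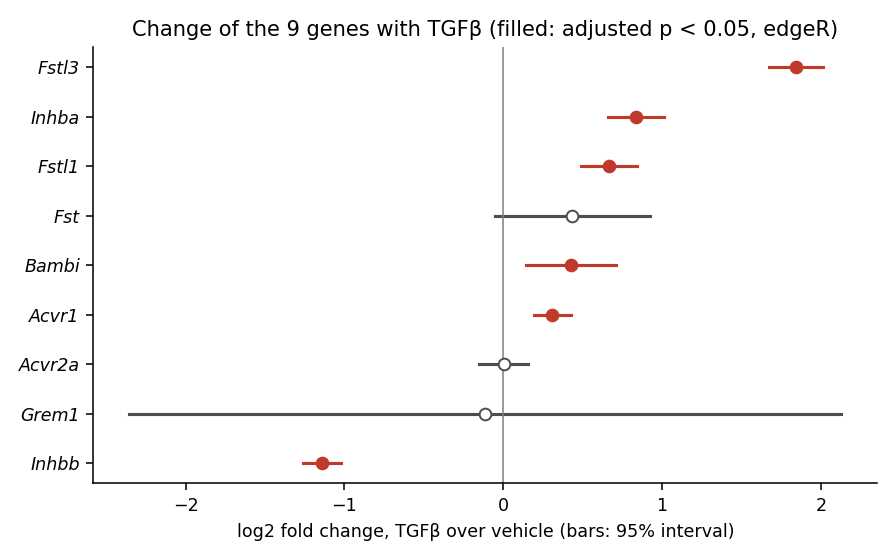
Log2 fold change (TGFβ over vehicle, x axis) of the 9 genes with 95% intervals as bars; filled points have an adjusted p under 0.05 in edgeR with 3 libraries per group. *Fstl3* lies farthest right at 1.85, *Inhbb* farthest left at -1.14, and the interval of *Grem1* runs from -2.36 to 2.13.

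The ligand genes moved in opposite directions. *Inhba* (ENSMUSG00000041324, chr13:16011851-16031621, plus strand, GENCODE M21 on GRCm38) encodes the βA subunit, which forms activin A as a homodimer. It measured 133, 112 and 126 CPM in vehicle A to C and 238, 206 and 218 CPM in TGFβ A to C. Each TGFβ library was above each vehicle library. The mean went from 124 ± 10.3 to 221 ± 16.3 CPM (mean ± SD of 3 libraries here and below), a log2 fold change of 0.84 with a standard error of 0.08 (edgeR adjusted p = 0.00014). *Inhbb* (ENSMUSG00000037035, chr1:119415465-119422248, minus strand) encodes the βB subunit of activin B. It measured 166, 164 and 181 CPM with vehicle and 74.7, 77.4 and 79.6 CPM with TGFβ. The lowest vehicle library was above the highest TGFβ library by more than the spread within either group. The mean went from 170.3 ± 9.64 to 77.2 ± 2.42 CPM (n = 3 per group), a log2 fold change of -1.14 with a standard error of 0.05 (edgeR adjusted p = 8.51e-06).

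Per length, the order of these subunit transcripts turned over. In RPKM (CPM per kilobase of merged exons), *Inhba* stood at 19.3 ± 1.61 and *Inhbb* at 40.0 ± 2.26 with vehicle, against 34.5 ± 2.56 and 18.1 ± 0.569 with TGFβ (n = 3 per group). The ratio of *Inhbb* to *Inhba* in RPKM was 1.88, 2.19 and 2.17 with vehicle and 0.471, 0.564 and 0.549 with TGFβ. *Inhba* therefore made up 31.4% to 34.8% of the summed RPKM of both subunits with vehicle (mean 32.6% ± 1.91, SD, n = 3) and 63.9% to 68.0% with TGFβ (mean 65.5% ± 2.18, SD, n = 3). The sum itself differed less, with a mean of 59.4 ± 3.12 RPKM and 52.7 ± 2.21 RPKM (n = 3 per group). The sums did not overlap, with 56.1 to 62.3 RPKM against 50.4 to 54.8 RPKM, and the two-sided exact permutation p was 0.1, the smallest that 3 against 3 allows. This separation depends on the lengths used, 6390 merged exon bases for *Inhba* and 4255 for *Inhbb*. Summed in CPM, without length, the groups overlapped.

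**Figure D2:**
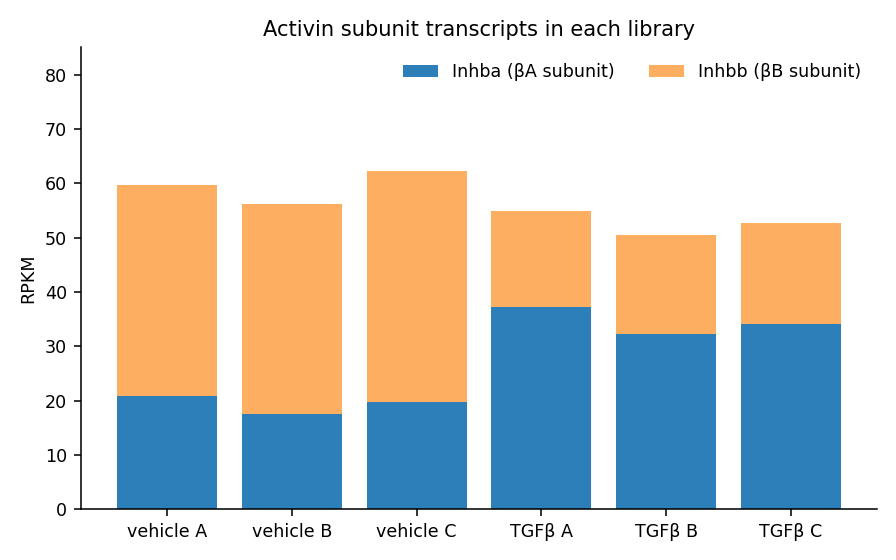
RPKM of *Inhba* (lower bar segment) and *Inhbb* (upper bar segment) stacked for each of the 6 libraries. The bars reach 56.1 to 62.3 RPKM with vehicle and 50.4 to 54.8 RPKM with TGFβ, while the *Inhba* segment goes from 31.4% to 34.8% of the bar to 63.9% to 68.0%.

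Of the receptor genes, *Acvr1* rose and *Acvr2a* did not pass the test. *Acvr1* (ENSMUSG00000026836, chr2:58388644-58567157, minus strand) encodes the type I receptor ALK2, best known for BMP signals. It measured 76.3, 69.5 and 68.6 CPM with vehicle and 90.1, 87.6 and 88.1 CPM with TGFβ. The groups did not overlap, and the TGFβ libraries lay close together (71.5 ± 4.23 CPM and 88.6 ± 1.30 CPM, n = 3 per group). The rise was small, with a log2 fold change of 0.31, a standard error of 0.05 and an edgeR adjusted p of 0.00192. *Acvr2a* (ENSMUSG00000052155, chr2:48814109-48903269, plus strand) encodes a type II receptor for activins. It measured 25.1, 26.3 and 27.3 CPM with vehicle and 24.4, 26.2 and 28.2 CPM with TGFβ, so that the TGFβ range enclosed the vehicle range. Its log2 fold change was 0.0024 with a 95% interval of -0.15 to 0.16 (edgeR adjusted p = 0.981), and its sign depended on the scaling of libraries. Of the *Acvr2a* exon bases, 7.84% also lie in exons of *Orc4* on the other strand, which had 957 to 1043 counts per library against 667 to 814 for *Acvr2a*. Whether the counting used strand is not given in the sources used here.

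Among the secreted proteins with follistatin domains, *Fstl3* and *Fstl1* rose and *Fst* did not pass the test. *Fstl3* (ENSMUSG00000020325, chr10:79777272-79782630, plus strand) encodes follistatin-like 3, which binds activins and myostatin. It measured 52.4, 50.2 and 53.0 CPM with vehicle and 191, 167 and 202 CPM with TGFβ. Each TGFβ library was more than 3 times as high as each vehicle library. The mean went from 51.9 ± 1.51 to 186 ± 18.1 CPM (n = 3 per group), a log2 fold change of 1.85 with a standard error of 0.07 (edgeR adjusted p = 5.49e-06). This change was larger in size than that of 98.1% of the genes tested. Of the *Fstl3* exon bases, 47.3% lie in exons of *Prss57* on the other strand. *Prss57* itself had 1 to 9 counts per library against 1488 to 5753 for *Fstl3*. The use of strand in counting is not given, so whether reads from the shared bases were counted for *Fstl3* is not known. Its part in the level of *Fstl3* was not tested.

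*Fst* (ENSMUSG00000021765, chr13:114452290-114458951, minus strand) encodes follistatin, the founding activin trap. It measured 58.5, 38.0 and 56.9 CPM with vehicle and 76.8, 50.1 and 80.5 CPM with TGFβ. In each group library B was below the other two, and TGFβ B lay under vehicle A and vehicle C, so that the groups overlapped. Whether libraries of the same letter belong together is not known, and the fit was unpaired. Any difference between cultures that both groups share would stay in its error, and its part in this result was not tested. The means were 51.1 ± 11.4 and 69.2 ± 16.6 CPM (n = 3 per group), with a log2 fold change of 0.44, a 95% interval of -0.05 to 0.92 and an edgeR adjusted p of 0.137 (two-sided exact permutation p = 0.3). Without TGFβ B the log2 fold change was 0.62 and the call was gained (edgeR adjusted p = 0.0333). The spread of *Fst* within groups, an SD of 0.36 on the log2 scale, was larger than that of 88.7% of the genes tested, for which the median was 0.10. The 5 mesothelial markers, of which 0 were called in edgeR, DESeq2 or limma-voom (1 at an unadjusted edgeR p under 0.05), were also lowest in these libraries, with a summed level of 85.1, 24.1 and 32.5 CPM in vehicle A to C and 41.3, 15.2 and 17.7 CPM in TGFβ A to C. Library B of each group was also lowest for the smooth muscle sum, with 160, 139 and 161 CPM in vehicle A to C and 245, 177 and 202 CPM in TGFβ A to C. The same held for the cardiomyocyte sum, nearly all of it *Tnnt2*, with 59.3, 38.4 and 45.9 CPM and 40.1, 27.2 and 36.6 CPM. The sums of the other cell type lists were not lowest in library B. The fibroblast, endothelial and leukocyte sums were lowest in library A of each group (endothelial 436 CPM and 397 CPM, leukocyte 246 CPM and 214 CPM). The part of these cell types in the *Fst* values was not tested. A share of 2.51% of the *Fst* exon bases lies in exons of *Gm47040* on the other strand.

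*Fstl1* (ENSMUSG00000022816, chr16:37776873-37836514, plus strand) encodes follistatin-like 1, a glycoprotein with a follistatin domain that fibroblasts of the injured heart are known to secrete. It measured 3309, 3452 and 2919 CPM with vehicle and 5157, 5297 and 4873 CPM with TGFβ, with no overlap. The mean went from 3227 ± 276 to 5109 ± 216 CPM (n = 3 per group), a log2 fold change of 0.66 with a standard error of 0.08 (edgeR adjusted p = 0.000424). In RPKM its level was above that of 99.8% of the genes tested with vehicle and 99.9% with TGFβ.

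*Grem1* (ENSMUSG00000074934, chr2:113746164-113758646, minus strand) encodes gremlin 1, a cystine knot protein that binds BMP2 and BMP4. It had few counts, with 19, 9 and 110 counts in vehicle A to C and 48, 4 and 66 counts in TGFβ A to C. In CPM these were 0.597, 0.303 and 3.69 with vehicle and 1.75, 0.143 and 2.32 with TGFβ. The highest library was 12.2 times the lowest with vehicle and 16.2 times with TGFβ, and the groups overlapped widely. The log2 fold change was -0.11 with a 95% interval of -2.36 to 2.13 (edgeR adjusted p = 0.94, two-sided exact permutation p = 0.9), so a rise or fall within this interval was not detectable at this spread. Its direction turned without vehicle C (log2 fold change 1.62) and without TGFβ B (0.42). The within-group SD of 2.04 on the log2 scale was larger than that of 99.8% of the genes tested. The endothelial sum was highest in library C of each group, at 669 CPM and 544 CPM, as were the leukocyte sum (350 CPM and 318 CPM) and *Grem1*. The endothelial marker *Tek* went the other way and was lowest in library C (74.6 CPM and 83.8 CPM). The mesothelial sum, the smooth muscle sum and the cardiomyocyte sum, the last nearly all *Tnnt2*, were lowest in library B. The part of these cell types in the *Grem1* values was not tested.

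*Bambi* (ENSMUSG00000024232, chromosome 18 from 3507923 to 3516404, plus strand) encodes a transmembrane protein that resembles a type I receptor and dampens TGFβ family signals. It measured 6.88, 5.77 and 5.03 CPM with vehicle, from 150 to 219 counts, and 8.01, 8.16 and 7.65 CPM with TGFβ, from 218 to 228 counts. The groups did not overlap, and the TGFβ libraries were the tighter ones (5.89 ± 0.933 CPM and 7.94 ± 0.265 CPM, n = 3 per group). The log2 fold change was 0.43 with a standard error of 0.12 (edgeR adjusted p = 0.0249). This was the largest adjusted p of the 6 genes called. The call was lost without vehicle B (edgeR adjusted p = 0.0737), without vehicle C (0.0585), without TGFβ A (0.0689) and without TGFβ B (0.0732), although the direction held.

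**Figure D3:**
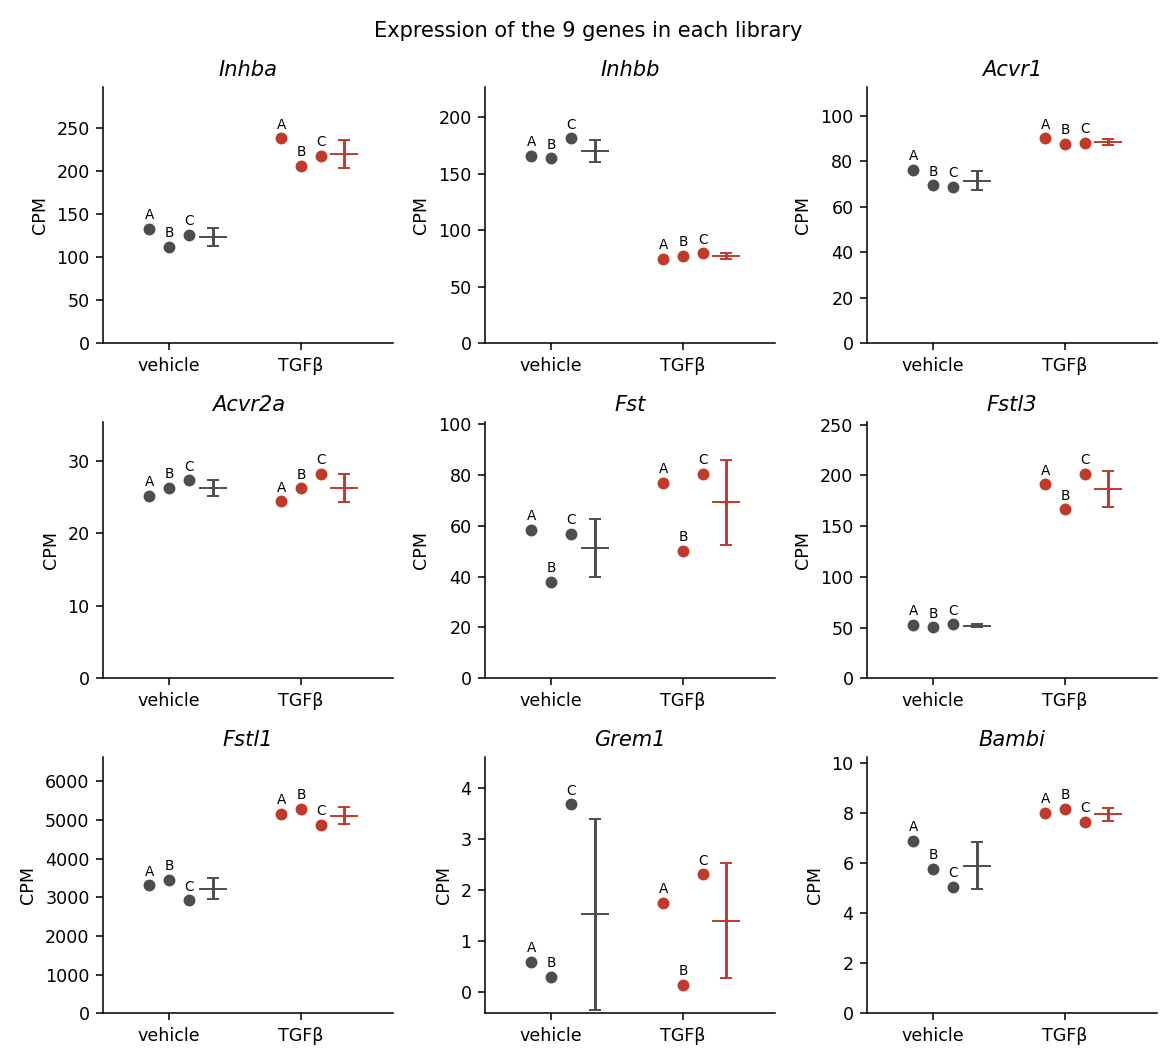
CPM (y axis, a separate linear scale for each gene) of the 9 genes in each vehicle and TGFβ library, labelled A to C, with the group mean and SD (n = 3) beside the points. *Fstl3* separates most widely (50.2 to 53.0 CPM against 167 to 202 CPM), *Acvr2a* overlaps fully, and *Fst* and *Grem1* show a low library B in each group.

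Per length, the 9 genes spanned a wide range. With vehicle the order of mean RPKM was *Fstl1* (657), *Inhbb* (40.0), *Fstl3* (21.2), *Inhba* (19.3), *Acvr1* (14.8), *Fst* (11.1), *Acvr2a* (4.61), *Bambi* (1.16) and *Grem1* (0.369). The neighbours *Fstl3* and *Inhba* overlapped in their ranges (20.5 to 21.7 RPKM and 17.6 to 20.8 RPKM), and no other neighbours did. With TGFβ the order was *Fstl1* (1039.6), *Fstl3* (76.3), *Inhba* (34.5), *Acvr1* (18.3), *Inhbb* (18.1), *Fst* (15.1), *Acvr2a* (4.62), *Bambi* (1.56) and *Grem1* (0.339). There *Fstl3* was clear of *Inhba*, and *Inhbb*, second with vehicle, overlapped with *Acvr1* (17.6 to 18.7 RPKM and 18.1 to 18.7 RPKM). These orders depend on the length used. Merged exons were longer than the longest transcript for *Acvr1* (4829 against 3293 bases), *Fst* (4589 against 2921), *Fstl1* (4914 against 3789) and *Fstl3* (2445 against 1955). Close places of these genes could change with transcript lengths, for which no order was computed.

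Ratios between genes of the same library do not depend on how the libraries are scaled, and 7 of them were compared by two-sided exact permutation tests on the log2 ratio of CPM. With 3 libraries against 3 the smallest possible p is 0.1, so none could pass the threshold of 0.05. For the 5 ratios that reached it, the p adjusted over all 7 was 0.14. The ratio of *Fstl3* to *Inhba*, antagonist to ligand, was 0.395, 0.446 and 0.422 with vehicle and 0.803, 0.809 and 0.928 with TGFβ. It was 2.01-fold higher with TGFβ without overlap (exact permutation p = 0.1). The ratio of *Fst* to *Inhba* was 0.441, 0.338 and 0.452 with vehicle and 0.323, 0.243 and 0.370 with TGFβ, with overlap (log2 difference -0.40, exact permutation p = 0.2, adjusted 0.233). Between the antagonists, the ratio of *Fst* to *Fstl3* was 1.12, 0.758 and 1.07 with vehicle and 0.402, 0.301 and 0.399 with TGFβ, also without overlap (log2 difference -1.41, exact permutation p = 0.1). For the subunits, the ratio of *Inhbb* to *Inhba* was 3.93-fold lower with TGFβ (log2 difference -1.98, exact permutation p = 0.1).

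The summed antagonists *Fst* and *Fstl3* over the summed subunits *Inhba* and *Inhbb* gave 0.372, 0.319 and 0.358 with vehicle and 0.857, 0.765 and 0.950 with TGFβ. This was 2.45-fold higher with TGFβ, again without overlap (exact permutation p = 0.1). Per length, the same quotient had a geometric mean of 0.544 with vehicle and 1.73 with TGFβ. Its level depends on the lengths used. Merged exons were longer than the longest transcript for *Fst* and *Fstl3* and equal to it for *Inhba* and *Inhbb*. The quotient was not computed with transcript lengths, so its place above or below 1 is not settled. For the receptors, *Acvr2a* to *Acvr1* was 0.329, 0.379 and 0.398 with vehicle and 0.271, 0.299 and 0.320 with TGFβ (log2 difference -0.31, exact permutation p = 0.1). *Grem1* to its target ligand *Bmp4* overlapped between groups (log2 difference 1.03, exact permutation p = 0.8), and its difference ran from 0.31 without TGFβ C to 2.24 without TGFβ B.

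**Figure D4:**
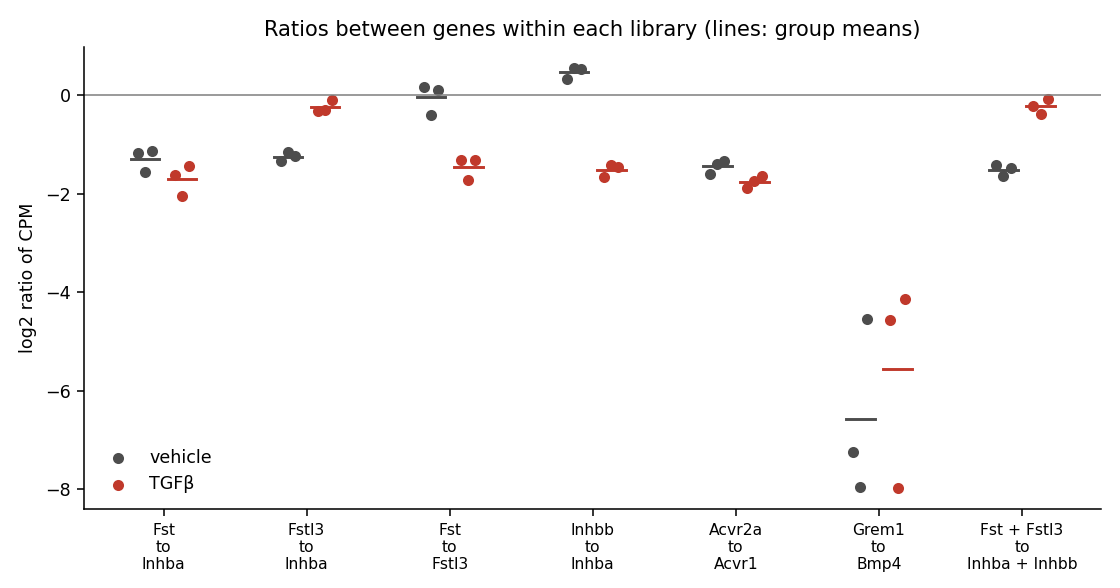
Log2 ratio of CPM (y axis) for the 7 ratios in each library, vehicle and TGFβ side by side, with lines at the group means. The groups are apart for 5 ratios, most widely for *Inhbb* to *Inhba* (log2 difference -1.98), and overlap for *Fst* to *Inhba* and *Grem1* to *Bmp4*.

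Of the 58 other ligands, receptors, antagonists, SMADs and target genes in the lists used, 50 were in the table and 40 were tested. With TGFβ 5 of the 40 rose and 17 fell, where 20.5% and 20.1% of all genes tested did, and their median log2 fold change was -0.17. Neither of the 2 other activin-type ligands tested (*Inha* and *Gdf11*) was called by edgeR, DESeq2 or limma-voom, or had an unadjusted edgeR p under 0.05 (0 in each case). Among 5 BMP ligands, *Bmp4* fell from 84.2 ± 8.04 to 39.4 ± 2.90 CPM (n = 3 per group, log2 fold change -1.10, edgeR adjusted p = 5.91e-05). *Gdf6* rose from 516 ± 29.3 to 708 ± 10.3 CPM (0.46, edgeR adjusted p = 0.000435).

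Of 6 other receptors tested, 1 rose and 2 fell, where 20.5% of all genes tested rose and 20.1% fell. *Acvr1b*, which encodes ALK4, the usual type I receptor for activins, fell from 62.1 ± 3.08 to 31.5 ± 2.47 CPM (n = 3 per group, log2 fold change -0.98, edgeR adjusted p = 3.56e-05). The change of *Acvr1b* was thus opposite in direction to that of *Acvr1*. *Acvrl1* (ALK1) fell from 277 ± 18.2 to 198 ± 16.3 CPM, and *Bmpr1b*, at a low level, rose from 1.04 ± 0.360 to 2.81 ± 0.166 CPM. The other type II receptors *Acvr2b* and *Bmpr2* were, like *Acvr2a*, not called, with 95% intervals of the log2 fold change of -1.22 to 0.38 and -0.11 to 0.20. All 5 co-receptors tested were called in edgeR, 2 higher and 3 lower, where 40.7% of all genes tested were called. DESeq2 called 4 and limma-voom 5, with 2 higher in each. *Tgfbr3*, which encodes betaglycan, a co-receptor for TGFβ and inhibin, fell from 69.8 ± 6.37 to 21.5 ± 1.57 CPM (n = 3 per group, edgeR adjusted p = 8.73e-06). *Rgma*, a BMP co-receptor, fell by 0.55 on the log2 scale, while *Eng* and *Neo1* each rose by 0.23.

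Of 11 other extracellular antagonists, 1 rose and 4 fell, where 20.5% of all genes tested rose and 20.1% fell. *Bmper*, which encodes a BMP-binding protein, rose from 72.2 ± 5.30 to 126 ± 10.6 CPM (n = 3 per group, log2 fold change 0.80, edgeR adjusted p = 0.000172). The BMP antagonist *Chrdl1* fell by 2.25 on the log2 scale from a low level, 2.51 ± 0.157 CPM to 0.525 ± 0.208 CPM. *Wfikkn2*, whose product binds myostatin and GDF11, fell with a log2 fold change of -1.15, and *Kcp* with one of -1.06. Of 8 SMAD genes 0 rose and 4 fell in edgeR, DESeq2 and limma-voom alike (1 had a higher level at an unadjusted edgeR p under 0.05), with log2 fold changes of -1.41 for *Smad9*, -0.77 for *Smad3*, -0.43 for *Smad6* and -0.23 for *Smad1*. The inhibitory *Smad7* measured 129 ± 9.02 CPM and 131 ± 9.90 CPM (n = 3 per group, log2 fold change 0.02, 95% interval -0.15 to 0.18). All 3 Id genes, known targets of BMP signals, fell, with log2 fold changes of -1.33 for *Id2*, -1.03 for *Id3* and -0.99 for *Id1*. *Inhbc*, *Inhbe*, *Mstn*, *Gdf1*, *Bmp7*, *Cfc1*, *Fstl5* and *Cer1* were not analysed here.

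**Figure D5:**
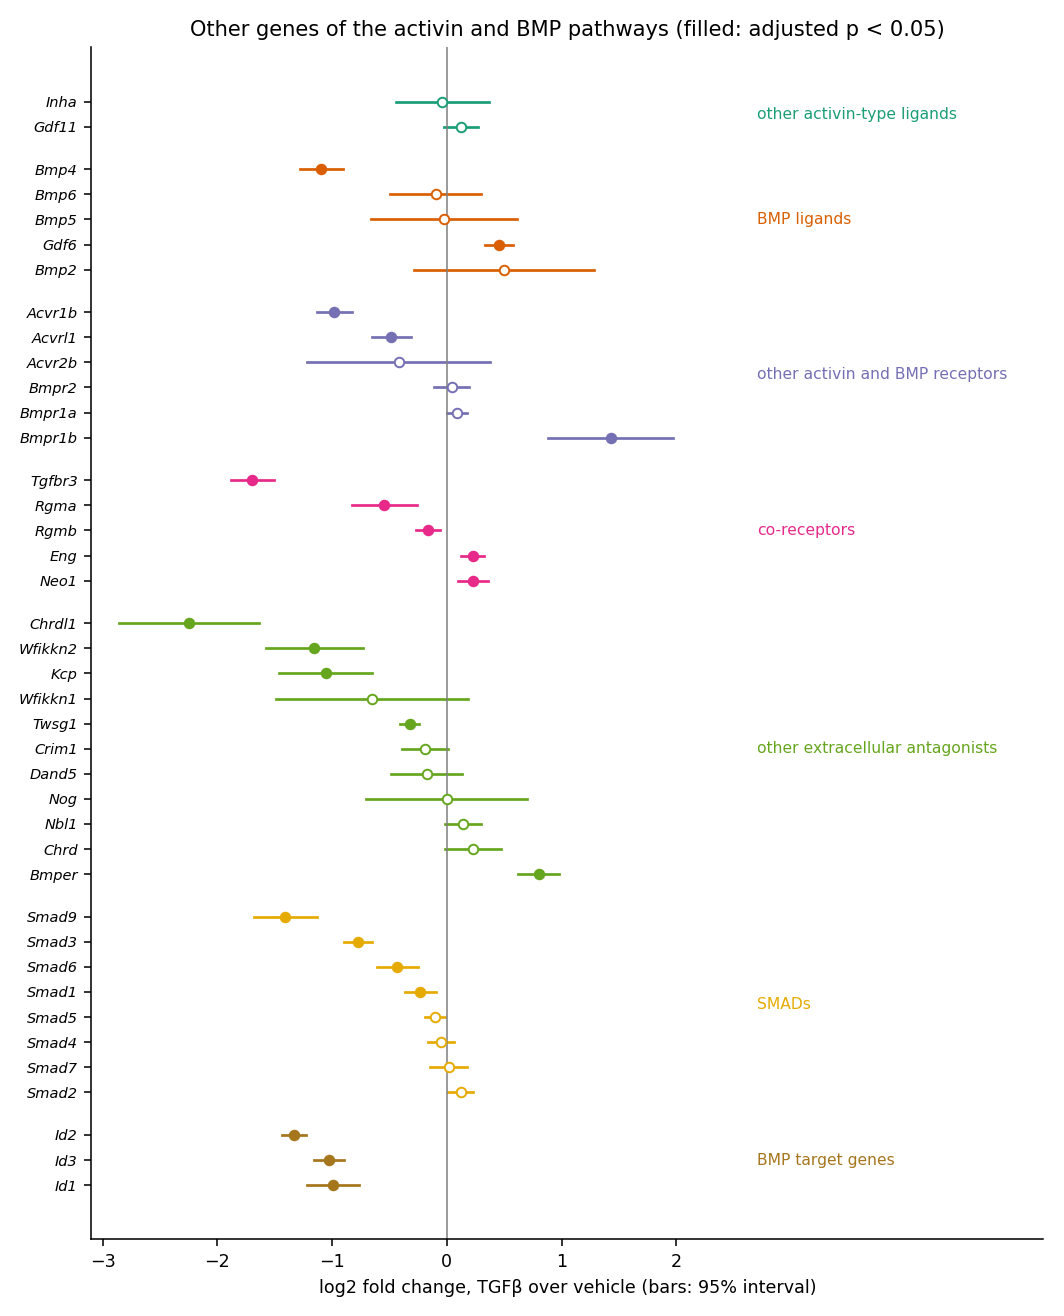
Log2 fold change (TGFβ over vehicle, x axis) with 95% intervals for the 40 other pathway genes tested, colored by list; filled points have an adjusted p under 0.05 in edgeR. Filled points lie mostly left of 0 (17 of 22), with *Chrdl1* farthest left at -2.25 and *Bmpr1b* farthest right at 1.43.

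The genes whose profile over the 6 libraries was most like that of *Fstl3* were *Col7a1*, which encodes the anchoring fibril collagen, *Adamts6*, a metalloprotease, and *Cx3cl1*, a chemokine. Likeness was measured as the root mean square difference of log2 CPM, centered on each gene's mean, over the 10373 genes that averaged 5 CPM or more, and was 0.0784, 0.0938 and 0.0949. *Cx3cl1* went from 37.3 ± 2.38 to 140.1 ± 11.2 CPM (n = 3 per group). For *Inhbb* the nearest were *Prrg3* (0.0588), *Camkk2*, a calcium/calmodulin-dependent kinase kinase (0.0657), and *Glul*, glutamine synthetase (0.0677). *Prrg3* went from 106 ± 8.20 to 48.4 ± 3.30 CPM (n = 3 per group). All of these profiles include the difference between the groups, for which 40.7% of the genes tested were called.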

How the data were processed

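RNA-seq was performed in 3 vehicle and 3 TGFβ cultures. The authors enriched polyadenylated mRNA with a stranded kit, read 75 bases from 1 end, mapped the reads to mm10 and ran DESeq2; the aligner, the counter and its use of strand are not given in the sources used here. They deposited raw counts per gene and library, without normalization. Columns with the authors' own fold changes, p-values and normalized means were not used. All 6 columns of counts were used.

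All genes were fitted together with edgeR 4.0.16 (R 4.3.3): TMM scaling, filterByExpr and the quasi-likelihood test, with Benjamini-Hochberg adjustment and a threshold of 0.05. CPM used TMM-scaled library sizes; RPKM used merged exons of GENCODE M21. Intervals are 95%. Alternatives were other scalings and filters, DESeq2 1.42.0, limma-voom (limma 3.58.1), stricter thresholds and each library left out. The steps were tested on simulated counts. Libraries of a group differed by more than counting error (chi-square per gene 7.95 to 27.1).

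The genes and lists were chosen with earlier results of these data known. Named were all 9 genes, up to 4 called genes per pathway list by size of change (mean of at least 1 CPM), and the 3 nearest profiles of the genes with the largest rise and fall. A few not called are named for their role. Lists covered other ligands, receptors, co-receptors, antagonists, SMADs, Id targets and cell type markers; 1 symbol (*Hjv*) was matched as *Hfe2*. Results for some genes of the lists are not reported here. Promoters are RefSeq's (GRCm38.p6).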

Additional observations from a re-analysis of the deposited data

How the results depend on the processing

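*Inhba*, *Inhbb*, *Acvr1*, *Fstl1* and *Fstl3* kept their direction and their call in all 12 refits (2 other scalings, 2 other tools, 2 other filters, 6 libraries left out in turn), with log2 fold changes of 0.77 to 0.89, -1.17 to -1.09, 0.28 to 0.36, 0.60 to 0.71 and 1.78 to 1.92. *Fst* ranged from 0.26 to 0.62 with 1 library left out and passed the threshold only without TGFβ B. *Bambi* ranged from 0.33 to 0.56 and lost its call in 4 of the 12. *Acvr2a*, near 0, changed sign with DESeq2 size factors (-0.0030), upper quartile factors (-0.018), DESeq2 (-0.0030) and the 1 CPM filter (-0.0063), and ranged from -0.060 to 0.053 with 1 library left out. *Grem1* ranged from -0.69 to 1.62 with 1 library left out, and the cause was not tested. The standard error of *Grem1* was 0.97 in edgeR, 1.33 in DESeq2 and 1.18 in limma-voom, so its printed interval is the narrowest of these tools. Of all genes, 5828 were called, 3595 at an adjusted p of 0.01 and 971 with a log2 fold change beyond 1 as well, which ask for more by construction. Beyond that fold, 2 of the 9 genes remained (*Fstl3* and *Inhbb*), and 9 of the pathway genes in place of 22 (1 higher, 8 lower); alternatives for the pathway lists were chosen after seeing the data. Leaving out 1 library gave 4489 to 5481 genes, 5 to 6 of the 9, and 20 to 23 pathway genes. With CPM plus 1 the 7 ratios moved by less than the spread between replicates. That spread was wide for *Grem1* to *Bmp4* (SD 1.96 on the log2 scale) and for *Fst* to *Inhba* (0.27). Leaving out 1 library cannot move a group mean by as much as this spread, so the same comparison could not fail there. No conclusion is drawn from it. The log2 difference of *Fst* to *Inhba* ran from -0.24 to -0.54 with 1 library left out. No paired analysis was possible because the columns of counts name the group and carry no replicate number. Counting error at the smallest count was 50.0% for *Grem1* (4 counts) and 8.16% for *Bambi* (150 counts), below their coefficients of variation with vehicle (123% and 15.8%). With TGFβ these coefficients were 80.3% and 3.34%, so the *Bambi* libraries, at 218 to 228 counts, lay closer together than the counting error at 150 counts. *Acvr1* with TGFβ had 1.47%, against a counting error of 2.21% at its smallest count. Such closeness is thus no measure of low variation between cultures. The other 7 genes had at least 667 counts in each library.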
